A study of Arabidopsis thaliana with 48 samples.

Results

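RNA of small polysomes (SP) was compared with non-polysomal RNA (NP) in mock-treated wild-type seedlings of Arabidopsis thaliana. The comparison used the 3 SP arrays and the 3 NP arrays whose titles name wild type and mock treatment, which are 6 of the 48 arrays of the study, and an SP and an NP array with the same replicate number came from 1 gradient. The value described throughout is SP minus NP within a gradient, on the log2 scale.

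All plants were of the line Landsberg erecta and were 10 days old, grown on sucrose medium with 16 h of light at 22 °C, and only the aerial part was taken. Mock-treated seedlings were submerged for 1 min in solvent alone, starting 2 h into the light period, and were harvested 2 h later. Herbicide-treated seedlings received chlorsulfuron (spelled chlorosufuron in the labels), and the gcn2 mutant seedlings were handled in the same way. The labels state the dose both as 0.5 mM and as a 5 mM stock diluted 10000-fold, and these do not match. They do not name the gcn2 allele or the number of seedlings per sample. Of a sucrose gradient of 30% to 50%, the top 4 fractions were pooled as NP, the next 4 as SP and the bottom 4 as large polysomes (LP).

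An mRNA that is being translated carries several ribosomes and sediments deep in a sucrose gradient, whereas free mRNA, mRNA held in other particles and mRNA with at most a single ribosome stay near the top. The number of ribosomes on an mRNA depends on how often translation starts and on the length of the reading frame, so a short mRNA can be fully engaged and still lie among small polysomes. Chloroplasts and mitochondria translate their own RNAs on ribosomes of their own type. The kinase GCN2 acts on the translation initiation factor eIF2α in cells short of amino acids, and chlorsulfuron blocks the synthesis of branched-chain amino acids at acetolactate synthase.

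Each array was shifted to a common median of 6.21, so a value is relative to the typical probe set of its fraction, and the amount of RNA in a fraction is not measured. The medians of the 24 NP and SP arrays of the study had lain between 6.145 and 6.311 as deposited. Across the 22746 probe sets tested, replicates correlated at 0.982 to 0.989 in NP and at 0.983 to 0.991 in SP. The differences SP minus NP correlated at 0.739 between replicates 1 and 2, at 0.624 between 1 and 3 and at 0.642 between 2 and 3. A signal below 3.78, the highest lower quartile of the 24 NP and SP arrays after the shift, is called dim here. A difference that involves a dim signal is uncertain in size. In counts, a probe set is dim where neither its NP nor its SP mean in wild-type mock exceeded this limit. Of the leaf markers, rubisco activase (RCA) was the 1 of 9 that was named and measured, with NP levels of 11.87, 12.45 and 12.19. Of 10 root markers 8 were measured and 6 were dim, and the 2 others, PYK10 and AT4G11290, are described below. No marker of epidermis or vasculature was measured under its name.

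The wild-type gradients of replicate 3 went against their labels. AT2G41730 had total RNA levels of 7.85, 7.83 and 7.89 after mock and of 11.65, 11.55 and 11.67 after herbicide. In NP its levels were 9.17, 9.07 and 12.43 in replicates 1, 2 and 3 labelled mock, and 12.25, 12.41 and 9.44 in those labelled herbicide. In SP they were 9.01, 9.20 and 12.31 against 12.21, 12.07 and 9.38. Replicate 3 thus lay with the opposite treatment in both fractions and with its own treatment in total RNA. CML38, a calmodulin-like protein, did the same, with SP levels of 7.21, 7.40 and 9.45 labelled mock and of 9.68, 9.73 and 7.23 labelled herbicide. The glucosyltransferase UGT73C1 had SP levels of 4.85, 4.87 and 6.99 labelled mock and of 7.21, 7.27 and 4.94 labelled herbicide. Groups are given as labelled, and some counts of calls and gene lists are given without replicate 3 as well. Where no such value is given, the result includes replicate 3, as for LP, total RNA and most single genes.

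Of the 22746 probe sets, 6631 (29.2%) differed between SP and NP in wild-type mock at an adjusted p under 0.05, by limma with Benjamini-Hochberg adjustment over all probe sets. SP was higher for 3943 (17.3%) and lower for 2688 (11.8%). These shares are the background against which each gene group is read. They include 5855 probe sets that were dim in both fractions, of which 234 were called. Shares among brighter probe sets were therefore higher in both directions, and many lists held few dim members. The differences were small for most genes: the 5th percentile of all probe sets was -0.727, the median 0.086 and the 95th percentile 0.816. The median of the higher probe sets was 0.65 and that of the lower ones -0.67, and 581 (2.55%) were higher and 462 (2.03%) lower by at least 1. The balance of directions depended on the centring. With the values as deposited, 3044 were higher and 3242 lower (48.4% higher), and with quantile normalization 3077 and 3274 (48.4%), against 59.5% higher here and 55.3% with centring on the brighter probe sets. All 3 SP arrays lay above all 3 NP arrays for 4106 probe sets (18.1%) and below them for 2588 (11.4%), which covers 4786 of the 6631 called (72.2%). Without replicate 3, 5391 were called, 4846 of them among the 6631. Without replicate 1 the count was 4390 and without replicate 2 it was 4189, so the count depended on which replicate was left out. The cause was not tested.

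**Figure D1:**
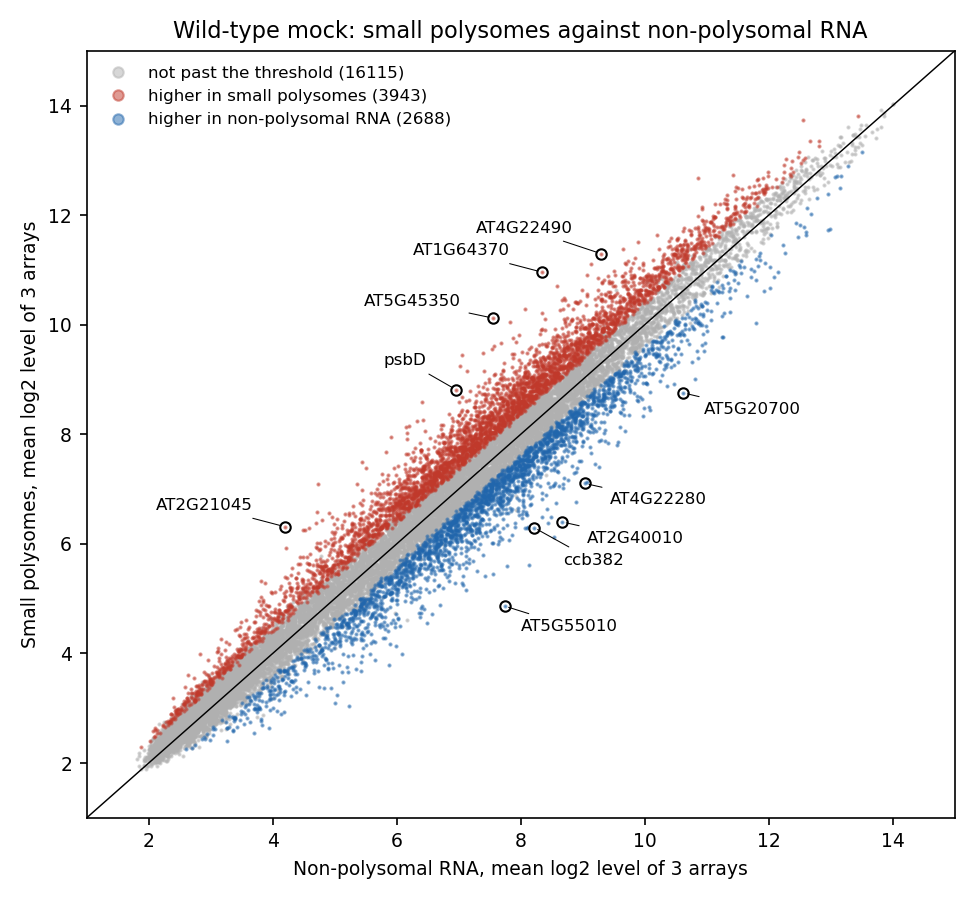
Mean log2 level of 3 SP arrays (vertical) against 3 NP arrays (horizontal) for 22746 probe sets in wild-type mock, with the line of equal level; red points were higher in SP (3943), blue points higher in NP (2688) and grey points not past the threshold. Most probe sets lie within 1 log2 unit of the line, and the named genes lie farthest from it or are described in the text.

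Among genes with a probe set of their own, AT1G64370 had the largest difference toward small polysomes. Its levels were 8.49, 8.34 and 8.20 in NP and 10.82, 11.50 and 10.57 in SP, so the fractions lay far apart in every gradient. Here and below, a value after ± is the SE of limma, which takes its spread from the gradients of all 4 groups. The difference for AT1G64370 was 2.62 ± 0.18 (mean of 3 gradients), or 6.14-fold (limma, adjusted p = 1.4e-07). Its neighbour on chromosome 1, AT1G64360, had NP levels of 8.18, 7.88 and 7.40 and SP levels of 10.46, 10.25 and 9.46, again without overlap. It differed by 2.23 ± 0.19. In LP, AT1G64370 had levels of 11.96, 11.89 and 9.65, above SP in replicates 1 and 2 but below it in replicate 3. AT1G64360 had LP levels of 9.42, 9.10 and 8.06, below SP in every gradient. Whether these neighbours differed deeper in the gradient was not tested.

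AT5G45350, which encodes a proline-rich protein, followed with NP levels of 7.63, 7.55 and 7.48 and SP levels of 9.84, 10.55 and 9.98, a difference of 2.57 ± 0.19. AT3G53980, a lipid-transfer-like protein, had NP levels of 7.28, 7.42 and 7.49 and SP levels of 9.30, 9.68 and 9.47. AT4G22490, of the same kind, had 9.06, 9.45 and 9.36 in NP against 11.52, 11.38 and 11.01 in SP. The defensin-like AT4G22212 had 6.06, 6.24 and 6.14 in NP against 8.37, 8.26 and 7.80 in SP. None of these 3 genes had an NP array that reached the lowest SP array, and their differences were 2.08 ± 0.14, 2.01 ± 0.17 and 2.00 ± 0.18.

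AT5G28630, a glycine-rich protein, had NP levels of 5.57, 6.27 and 7.41 and SP levels of 7.77, 8.34 and 9.66. Its replicates differed in level, but the step from NP to SP was similar within each gradient (2.18 ± 0.31). AT2G21045, the arsenate reductase HAC1, had 3.73, 4.60 and 4.27 in NP, of which the first is dim, and 6.52, 6.49 and 5.93 in SP (2.11 ± 0.21). AT1G73630, a calmodulin-like protein, had 6.97, 7.11 and 7.32 in NP against 8.86, 9.38 and 9.22 in SP (2.02 ± 0.14). The 14 were completed by AT2G15000 (2.22), AT1G24575 (2.13), AT1G67865 (2.06), AT1G28400 (1.99) and AT4G22510 (1.98). For all 14 every SP array lay above every NP array, and every one was also higher in SP on average in the gcn2 mock, wild-type herbicide and gcn2 herbicide gradients. The smallest of those averages was 0.51, for AT4G22490 in gcn2 herbicide.

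Toward non-polysomal RNA the largest difference was that of AT5G55010. Its levels were 7.75, 7.12 and 8.36 in NP and 4.95, 4.55 and 5.10 in SP, and its total RNA mean of 4.73 lay beside the SP values. The difference was -2.88 ± 0.17 (adjusted p = 5e-08), which is 7.34-fold higher in NP. AT1G15180, a MATE-family transporter, had 6.14, 6.10 and 6.01 in NP against 4.22, 4.15 and 3.61 in SP (-2.09 ± 0.19). AT4G29990, a leucine-rich-repeat receptor kinase, had 7.47, 6.82 and 7.08 against 5.90, 4.95 and 4.62 (-1.97 ± 0.24). Neither gene had overlapping fractions.

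AT2G22620, a rhamnogalacturonate lyase-like enzyme of the cell wall, had NP levels of 8.68, 8.26 and 8.55 and SP levels of 6.74, 6.38 and 6.34 (-2.01 ± 0.19). AT1G69526, a methyltransferase-like protein, had 8.87, 8.14 and 8.30 against 6.64, 6.20 and 6.28 (-2.06 ± 0.15). The F-box protein gene AT4G22280 had 9.19, 8.88 and 9.05 against 7.43, 6.90 and 6.97 (-1.94 ± 0.14). These 3 differed by about as much in every gradient. Further members were AT3G18300 (-1.94), AT5G21020 (-1.94) and AT5G20700 (-1.87). AT2G07705 (-2.20), AT2G07719 (-2.01), AT2G07678 (-1.91) and the mitochondrial ccb382 (-1.92) are taken up with the organelle RNAs, and AT2G40010 with the ribosomal proteins. All 14 lay lower in SP on every array, and their averages in the other 3 groups were all below 0, the lowest being -3.12.

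**Figure D2:**
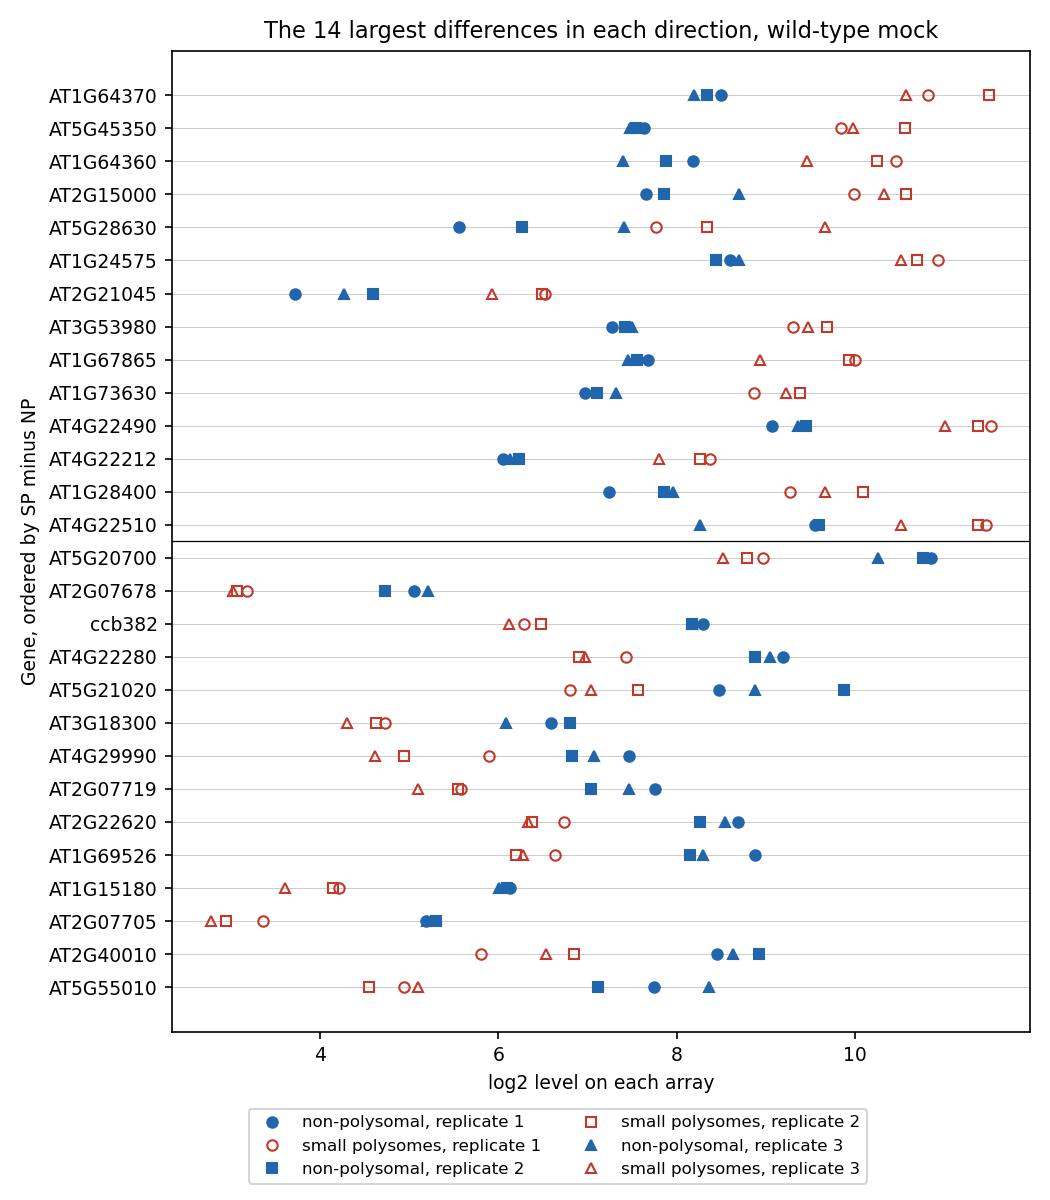
log2 level on each NP array (filled blue) and each SP array (open red) of wild-type mock for the 14 genes with the largest difference in each direction; symbols mark the replicate. The upper 14 genes have every SP array above every NP array, from AT1G64370 (2.62) to AT4G22510 (1.98), and the lower 14 the reverse, down to AT5G55010 (-2.88).

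The ribosomal stalk protein P0, which anchors the acidic proteins of the 60S subunit, is encoded by several genes, and 3 of them differed in direction. AT2G40010 (P0A) had NP levels of 8.45, 8.92 and 8.63 and SP levels of 5.81, 6.85 and 6.54, a difference of -2.27 ± 0.18 (adjusted p = 3e-07). AT3G11250 (P0C) had NP levels of 6.19, 6.40 and 6.83 and SP levels of 7.28, 7.72 and 7.83, a difference of 1.14 ± 0.14 (adjusted p = 1.3e-05). For both genes the fractions did not overlap, and the directions were opposite in every gradient. AT3G09200 (P0B) had NP levels of 13.09, 13.03 and 12.74 and SP levels of 12.28, 12.48 and 12.41, a difference of -0.57 ± 0.14 that fell short of the threshold without replicate 1 (-0.44, adjusted p = 0.082). P0A averaged -1.68, -1.94 and -1.20 and P0C 1.07, 0.94 and 0.88 in gcn2 mock, wild-type herbicide and gcn2 herbicide. P0B averaged -0.40, -0.43 and 0.24 there. Probes of such related genes can share signal, and whether they did was not tested.

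Among the other cytosolic ribosomal proteins all calls were toward SP. Of 48 proteins of the 40S subunit, 18 were higher in SP and 0 lower (37.5% against the background of 17.3%), with a median of 0.34 against 0.09 for all probe sets. S3a (AT3G04840), a protein of the 40S subunit, had NP levels of 9.24, 9.61 and 10.04 and SP levels of 10.53, 11.11 and 10.68 (1.14 ± 0.17), without overlap. S25 (AT2G21580) ranged from 10.50 to 11.68 in NP and from 11.65 to 12.18 in SP (0.84 ± 0.17), where the highest NP array exceeded the lowest SP array. Of 84 proteins of the 60S subunit, 5 were dim. In this list 19 were higher (22.6%, against 17.3% with dim probe sets included). Lower were 2, the 2 P0 genes above, and the median was 0.19. L7a (AT2G47610) had 9.93, 10.20 and 10.81 in NP against 10.78, 11.52 and 11.58 in SP (0.98 ± 0.16). With quantile normalization the 60S counts were 11 higher and 6 lower.

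The gradients differed in these medians. By gradient, the 40S median was 0.42, 0.62 and 0.06 in replicates 1, 2 and 3 labelled mock, and 0.01, 0.10 and 0.47 in those labelled herbicide. The 60S median was 0.34, 0.38 and -0.19 against -0.19, -0.14 and 0.29. Replicate 3 lay with the opposite treatment here too. Without it, 25 of the 40S list were higher and 0 lower (median 0.49), and 26 of the 60S list were higher and 2 lower (median 0.37). Among all 22746 probe sets, 3320 were higher and 2071 lower without replicate 3. In gcn2 mock, whose gradients are separate but share the estimate of spread, 32 of 48 and 32 of 84 were higher. Lower were 0 and 4, against 19% higher and 13.7% lower among all probe sets. Plastid ribosomal proteins encoded in the nucleus were higher in wild-type mock for 5 of 10 (50.0% against 17.3%) and lower for 0 (median 0.46). Among them were AT4G01310 (0.58 ± 0.14), which fell short without replicate 2 (adjusted p = 0.075), and AT3G13120 (0.56 ± 0.13), which fell short with quantile normalization (adjusted p = 0.059). That scaling left 2 of the 10 higher, and 8 were higher without replicate 3.

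Among translation factors 6 of 18 were higher in SP (33.3% against 17.3%) and 0 lower. The median, however, was 0.09, equal to that of all probe sets, and 2 were lower with quantile normalization. The largest differences were those of both measured genes for eIF1A, which helps the small subunit to scan for the start codon. AT2G04520 had NP levels of 8.56, 8.84 and 9.26 and SP levels of 9.95, 10.86 and 10.42 (1.53 ± 0.20). AT5G35680 had 9.19, 9.37 and 9.37 against 10.74, 10.88 and 10.65 (1.44 ± 0.15). Neither overlapped, and in the other 3 groups they averaged between 1.05 and 1.91. The other 4 were the eIF5 genes AT1G77840 (0.81) and AT1G36730 (0.83), the eIF1 gene AT1G54290 (0.73) and EIF4A-2 (0.54), an RNA helicase.

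Aminoacyl-tRNA synthetases, which charge tRNAs with amino acids, were higher for 8 of 19 (42.1% against 17.3%) and lower for 1. Their median was 0.24. Seryl-tRNA synthetase (AT5G27470) had 9.90, 10.01 and 10.00 in NP against 10.48, 10.89 and 11.09 in SP (0.85 ± 0.14), and AT4G39280, a phenylalanyl-tRNA synthetase, differed by 0.77 ± 0.14. The lower member was AT3G56300, a cysteinyl-tRNA synthetase-like gene, with 6.53, 6.13 and 6.19 against 5.31, 5.27 and 5.20 (-1.02 ± 0.18). It averaged -0.64, -0.79 and -0.56 in gcn2 mock, wild-type herbicide and gcn2 herbicide. AT1G17960 of the same list had a difference of -0.75 ± 0.28 in wild-type mock, short of the threshold (adjusted p = 0.0502), and averaged -1.77, -1.01 and -1.29 in the other groups. With each of the 3 other scalings 2 members were lower.

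Histones were higher in SP for 10 of 17 and lower for 0 (58.8% against 17.3%), with a median of 0.60. The 10 included the H2B genes HTB4, with NP levels of 11.64, 11.44 and 12.34 and SP levels of 12.58, 12.55 and 12.80, and HTB11, with 9.42, 9.38 and 10.40 against 10.21, 10.63 and 10.89. HTB4 did not overlap between fractions (0.84 ± 0.15), whereas the NP array of replicate 3 lay above an SP array for HTB11 (0.85 ± 0.16). By gradient the histone median was 0.61, 0.83 and 0.45 labelled mock and 0.23, 0.25 and 0.71 labelled herbicide.

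Subunits of the 26S proteasome, the complex that degrades ubiquitin-tagged proteins, were higher for 5 of 9 (55.6% against 17.3%) and lower for 0. Their median was 0.57. RPN7 (AT4G24820), a subunit of its lid, had 7.78, 7.85 and 7.86 in NP against 8.78, 8.99 and 8.97 in SP (1.09 ± 0.15). RPT4b (AT1G45000), an ATPase of its base, had 10.35, 10.55 and 9.95 against 11.28, 11.18 and 11.02 (0.88 ± 0.14). The fractions of both stood apart, and the list medians of the 3 gradients were 0.46, 0.30 and 0.50.

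Of 9 heat shock proteins, 4 were higher (44.4% against 17.3%) and 0 lower, with a median of 0.46, and 2 were higher without replicate 3. The chaperone Hsp70-2 had 6.88, 7.11 and 6.02 in NP against 7.53, 8.16 and 7.28 in SP (0.99 ± 0.14). The small heat shock protein AT5G51440 had 5.50, 5.65 and 6.85 against 6.13, 6.28 and 7.55 (0.65 ± 0.16); its fractions overlapped because both arrays of replicate 3 were higher. Nuclear genes of photosynthesis were higher for 3 of 9 (33.3% against 17.3%) and lower for 0, with a median of 0.14. The 3 were PSBY (0.53 ± 0.13) and PSB27 (0.46 ± 0.14), both of photosystem II, and LHCB4.3 (0.62), a light-harvesting protein.

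Small cysteine-rich and signalling peptides were higher for 5 of 19 (26.3% against 17.3%) and lower for 0, with a median of 0.17. The defensin LCR67 had NP levels of 6.12, 5.43 and 4.95 and SP levels of 8.06, 7.46 and 6.65, each gradient stepping up by a similar amount (1.89 ± 0.25). AT5G59845, a gibberellin-regulated peptide, had 7.90, 7.37 and 7.46 against 9.18, 8.64 and 8.64 (1.24 ± 0.14). Neither gene overlapped between fractions. LCR67 averaged 1.54 in gcn2 mock and 1.81 in wild-type herbicide but -0.53 in gcn2 herbicide.

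Several groups had no common direction. Transcription factors of 6 families were higher for 2 of 36 (5.56% against 17.3%) and lower for 5 (13.9% against 11.8%). Without replicate 3, 3 were lower. Their median of 0.06 turned to -0.01 with the values as deposited and to -0.07 with quantile normalization. The higher ones were bZIP58, with 5.29, 5.10 and 5.51 in NP against 6.42, 6.65 and 6.62 in SP (1.27 ± 0.17), and ILR3 (0.41 ± 0.14), which fell short with quantile normalization (adjusted p = 0.19). WRKY53, a regulator of leaf senescence, lay lower with 8.39, 8.46 and 8.88 against 7.96, 7.77 and 8.19 (-0.60 ± 0.14), and so did EEL (-0.58 ± 0.14). Secreted proteins and wall enzymes were higher for 3 of 37 and lower for 3 (8.11% each, below both background shares). Among them the xyloglucan-modifying enzymes XTH19 (1.00 ± 0.19) and XTH18 (0.92 ± 0.15) lay higher, and EXGT-A3 (-0.60 ± 0.16), of the same enzyme family, and CSLA03 (-0.91 ± 0.18), a cellulose synthase-like protein, lower.

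Genes with a conserved upstream reading frame, a short frame that can hold ribosomes before the main one, were higher for 3 of 19 (15.8%, near the background) and lower for 1. The higher ones were eIF5 (AT1G36730), the methyltransferase PMEAMT (0.65 ± 0.15) and AT1G64140 (0.63), and the F-box gene AT5G27920 was lower (-0.56 ± 0.16). Of 8 Aux/IAA and SAUR genes, which respond to auxin, IAA18 was lower (-0.37 ± 0.12), but not without replicate 3 (adjusted p = 0.067). GI was the core clock gene measured, with a difference of -0.30 that did not pass the threshold. The root marker PYK10, a beta-glucosidase, had 8.79, 9.14 and 8.92 in NP against 9.63, 10.31 and 10.24 in SP (1.11 ± 0.16), and the peroxidase AT4G11290 differed by 0.87 ± 0.18. SP and NP came from the same gradient, so these differences do not measure the share of a cell type in the tissue.

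Myosins and kinesins move along the cytoskeleton and are large proteins. The list drawn up for myosins, kinesins and ABC transporters had 13 measured probe sets. Of these, 5 were lower in SP and 0 higher (38.5% against the background of 11.8%), with a median of -0.27. Among all nuclear protein-coding genes with a genomic span over 6000 bp, described below, 40.3% were lower, with a median of -0.30. Myosin VIIIB had NP levels of 9.36, 9.04 and 8.29 and SP levels of 7.83, 7.14 and 6.98 (-1.58 ± 0.17). Myosin XIJ had 5.93, 5.45 and 5.78 against 4.63, 4.27 and 4.67 (-1.20 ± 0.15). Both were apart in every array, and XI-I (-0.90), AT2G28620 (-0.81) and XIC (-0.57) completed the 5.

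**Figure D3:**
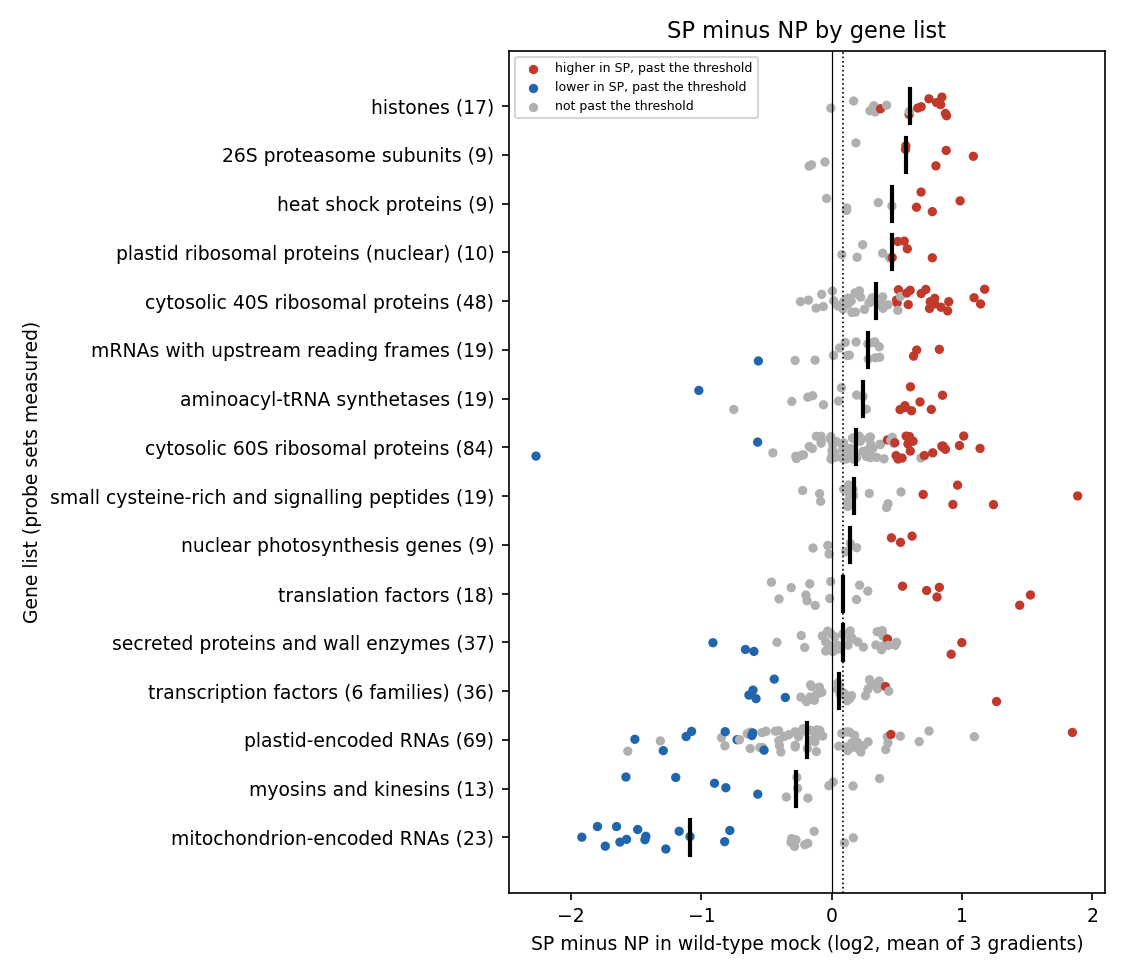
SP minus NP in wild-type mock for the measured probe sets of 16 gene lists, each point a probe set and each black bar the median of its list; the dotted line is the median of all probe sets (0.09). Histones (median 0.60) and proteasome subunits (0.57) lie farthest to the right and mitochondrion-encoded RNAs (-1.09) farthest to the left, and P0A is the isolated point at -2.27 among the 60S proteins.

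RNAs encoded in the mitochondrion were lower in SP for 14 of 23 probe sets and higher for 0 (60.9% against 11.8%), with a median of -1.09, and 10 of the 23 were dim. The gene ccb382, needed for the maturation of cytochrome c, had NP levels of 8.30, 8.17 and 8.17 and SP levels of 6.29, 6.48 and 6.12 (-1.92 ± 0.17). ccb452, of the same pathway, had 6.62, 6.41 and 6.29 against 5.25, 4.83 and 4.37 (-1.62 ± 0.16). COX1, a core subunit of cytochrome c oxidase and written cox1 in the annotation, had 11.56, 10.51 and 10.78 against 10.14, 9.20 and 9.24 (-1.43 ± 0.16). All 3 were apart between fractions. Subunits of respiratory complex I, among them nad5 (-1.27), nad4 (-1.17), nad6 (-1.09) and nad9 (-0.82), were lower as well, and 4 of 7 probe sets of nad1 lay between -1.80 and -1.49. The list median was -1.14, -0.90 and -1.02 in the 3 gradients and between -1.60 and -0.54 in the other 9.

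A stretch of chromosome 2 holds a copy of mitochondrial DNA in the reference genome, and 16 of the 37 probe sets with loci there (AT2G076 to AT2G077) were lower in SP and 1 higher (0 with each of the 3 other scalings and without replicate 3), with a median of -0.52. AT2G07705 had 5.19, 5.30 and 5.20 in NP against 3.37, 2.95 and 2.79 in SP (-2.20 ± 0.28). AT2G07719 had 7.75, 7.04 and 7.47 against 5.59, 5.55 and 5.11 (-2.01 ± 0.17), and AT2G07678 had 5.06, 4.73 and 5.22 against 3.18, 3.08 and 3.03. The SP levels of AT2G07705 and AT2G07678 were dim. Signal from the mitochondrial copy and from these loci cannot be told apart on the array.

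Plastid-encoded RNAs were less uniform. Of 69, 9 were lower in SP and 2 higher, with a median of -0.19. The share lower was 13%, against the background of 11.8% that includes dim probe sets. None of the 69 was dim. The count lower was 5 without replicate 3 and 15 with quantile normalization, where 2071 and 3274 of all probe sets were lower. The lower ones included psaJ (-1.51 ± 0.25) and psbM (-1.12 ± 0.16) of the photosystems, rps16 (-1.29 ± 0.20) of the plastid ribosome, accD (-1.07 ± 0.20) of fatty acid synthesis and ccsA (-0.82 ± 0.20) of cytochrome c assembly. Levels of psbM were 12.13, 11.34 and 11.46 in NP and 10.98, 10.54 and 10.07 in SP, and those of rps16 were 11.08, 10.72 and 10.98 against 9.65, 9.87 and 9.39, both without overlap. The higher ones were psbD, a reaction-centre protein of photosystem II, and atpB (0.46 ± 0.15) of the ATP synthase, which fell short with quantile normalization (adjusted p = 0.22). psbD had NP levels of 7.65, 6.56 and 6.68 and SP levels of 9.21, 8.81 and 8.42 (1.85 ± 0.44, adjusted p = 0.0043). It did not overlap between fractions, but fell short without the pairing by gradient (adjusted p = 0.12). The RNA for the large subunit of rubisco, rbcL, differed by -0.28 ± 0.21 (adjusted p = 0.37).

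**Figure D4:**
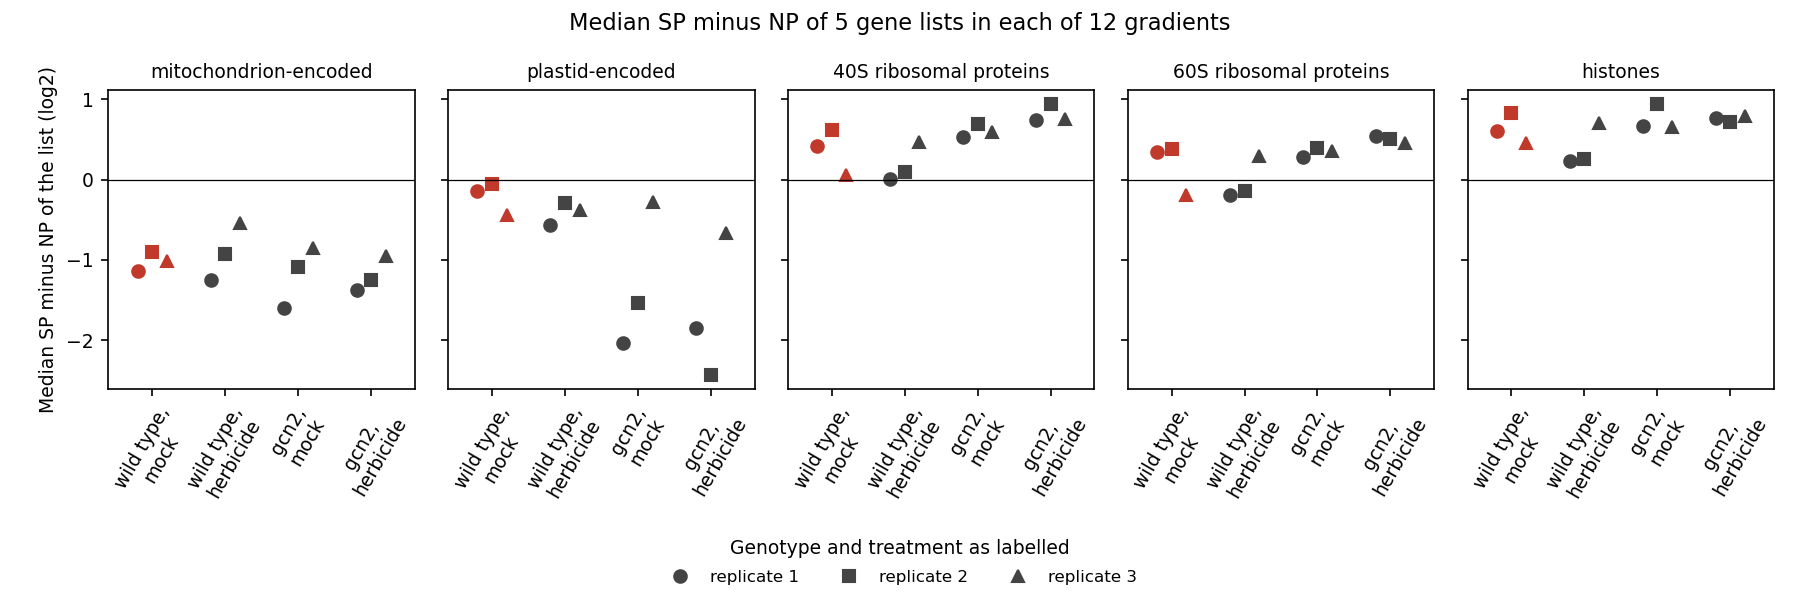
Median SP minus NP of 5 gene lists in each of the 12 gradients, by genotype and treatment as labelled, with wild-type mock in red and symbols for replicates. Mitochondrion-encoded RNAs lie below 0 in all 12 gradients, plastid-encoded RNAs reach -2.04 and -1.54 in gcn2 mock replicates 1 and 2 but -0.28 in replicate 3, and the ribosomal protein medians of wild-type replicate 3 lie with the opposite treatment.

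Genes that the annotation types as pseudogenes were dim in 852 of 989 cases. Of the 137 that were not dim, 13 were higher in SP and 23 lower (9.49% and 16.8%). The background of 17.3% higher and 11.8% lower includes dim probe sets. Among the 137, 5 were higher with the values as deposited and 7 with quantile normalization or centring on the brighter probe sets. Without replicate 3 the count higher was 6, and the counts lower were 26, 25 and 17. AT5G04880 was lower, with 9.05, 8.57 and 9.11 in NP against 7.76, 7.36 and 7.02 in SP (-1.53 ± 0.17), and AT2G04770 too (-1.60 ± 0.17). AT5G50315 was higher, with 5.98, 5.03 and 5.38 against 7.20, 6.42 and 6.15 (1.13 ± 0.18), and so was AT3G17050 (0.77 ± 0.15). None of the 4 genes typed as non-coding RNA passed the threshold.

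The genomic span of a gene, from its start to its end with introns, went with the difference. Over 9158 nuclear protein-coding genes that were not dim, the median of SP minus NP was 0.23 for 730 genes of up to 1000 bp and -0.30 for 325 genes over 6000 bp. SP was higher for 30.1% and lower for 13% of the shortest group, and higher for 3.69% and lower for 40.3% of the longest. The order held in each gradient at the long end, with medians of -0.29, -0.41 and -0.22. At the short end it was 0.32 and 0.26 in replicates 1 and 2 but 0.03 in replicate 3. The wild-type herbicide gradients gave -0.08 and -0.14 in replicates 1 and 2 and 0.31 in replicate 3 at the short end. The median span was 1985 bp among genes higher in SP, 2687 bp among those lower and 2312 bp among those not called. Spearman's rho between span and difference was -0.23 across genes, which share the arrays, so this is a description.

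**Figure D5:**
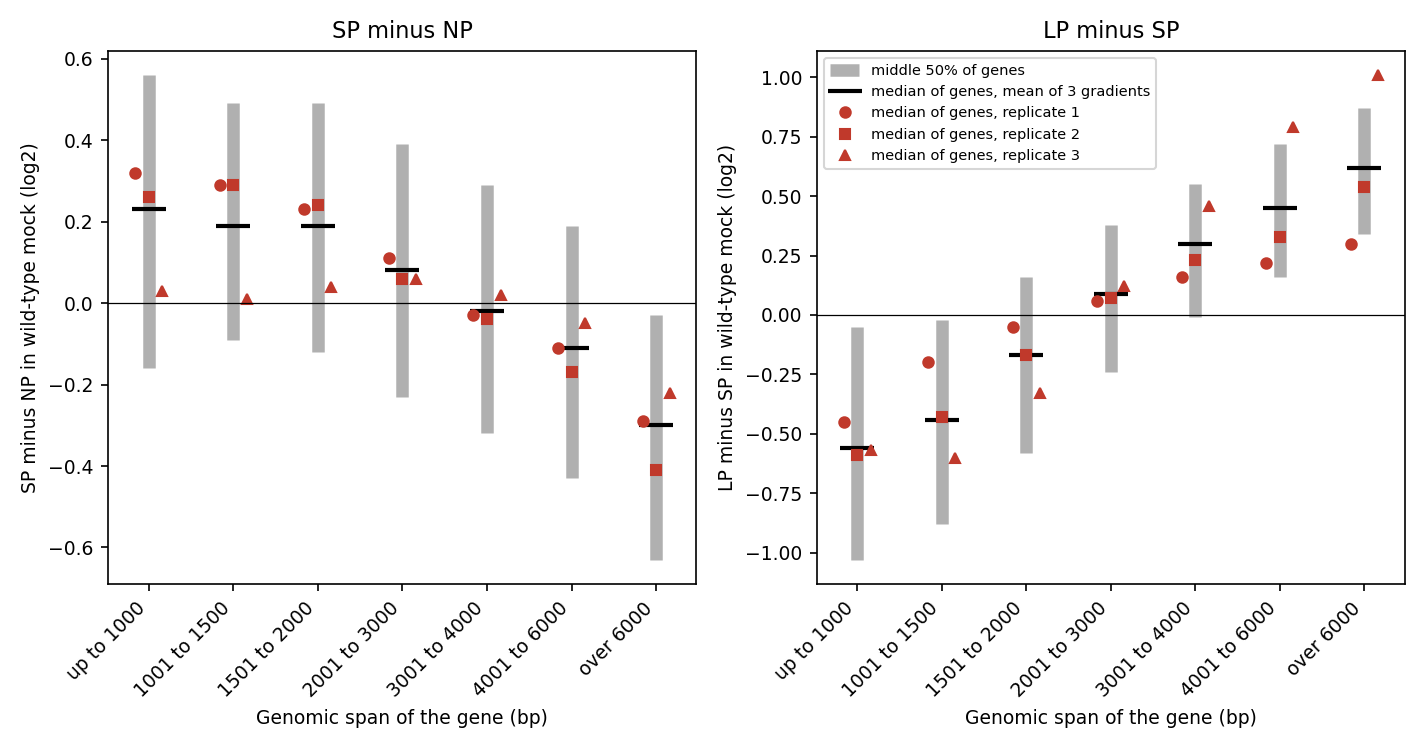
SP minus NP (left) and LP minus SP (right) in wild-type mock for 9158 nuclear protein-coding genes in 7 bins of genomic span; black bars are medians of the mean of 3 gradients, grey bars the middle 50% of genes and red symbols the medians of single gradients. SP minus NP goes from 0.23 to -0.30 and LP minus SP from -0.56 to 0.62 as span increases.

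Large polysomes share the SP arrays in the difference LP minus SP, so their values are given side by side only. LP minus SP went from -0.56 for genes up to 1000 bp to 0.62 for those over 6000 bp (rho 0.54 across genes), and from -0.55 to 0.51 in gcn2 mock. The LP array of replicate 1 in wild-type mock had a median of 5.668 as deposited, against 6.171 and 6.169 in replicates 2 and 3. After the shift to a common median, replicate 3 stood apart at the long end. LP minus SP over 6000 bp was 0.30, 0.54 and 1.01 in replicates 1, 2 and 3, and up to 1000 bp -0.45, -0.59 and -0.57. Single genes varied between LP arrays, as AT5G45350 did with 11.22, 10.56 and 7.55. The LP means used here include replicate 3. Of the probe sets higher in SP than in NP, 52.1% had a lower mean in LP than in SP, against 31.5% of those lower in SP and 34.3% of all. Total RNA lay closer to SP than to NP. For the probe sets higher in SP the median of total RNA minus NP was 0.54 and of total RNA minus SP -0.15. For those lower in SP these were -0.55 and 0.16. These medians include replicate 3, whose marker genes followed the label in total RNA but not in NP and SP.

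The same direction was seen in gradients that did not enter the wild-type mock means. Those gradients did enter the spread used by limma, which all groups share, so calls shared between groups are not independent. Of the 3943 probe sets higher in SP in wild-type mock, 3869 (98.1%) had a mean above 0 in gcn2 mock, where 56.4% of all probe sets did, and of the 2688 lower ones 2648 (98.5%) had a mean below 0. In gcn2 mock 7452 probe sets (32.8%) were called. They shared 3088 higher calls, which were 78.3% of the wild-type and 71.4% of the gcn2 calls, and 2127 lower calls (79.1% and 68.0%). With the labelled wild-type herbicide gradients, where 14.7% of all probe sets were higher and 11.2% lower (25.8% in all), 2643 higher and 1948 lower calls were shared. In gcn2 herbicide, where 19.2% were higher and 13.1% lower (32.3% in all), 2611 and 1824 were shared. The sources used here do not say whether arrays of different groups were normalized jointly.

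Between genotypes, 2 probe sets (0.00879%) differed in SP minus NP after mock, and 1121 had an unadjusted p under 0.05. AT4G03156 differed by -1.77 ± 0.21 (adjusted p = 0.0027), with gradient values of 0.12, 0.42 and 0.24 in wild type and -1.62, -1.62 and -1.30 in gcn2. Both of its wild-type fractions were dim, so the wild-type difference is uncertain in size. AT2G04770, typed as a pseudogene and measured by a probe set that may detect other transcripts, differed by 1.60 ± 0.23 (adjusted p = 0.026), with -1.72, -1.69 and -1.39 in wild type and 0.57, -0.38 and -0.18 in gcn2. The genotypes did not overlap for either gene. AT2G04770 fell short in 8 of the alternatives, among them the fit without wild-type replicate 3 (adjusted p = 0.077).

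For plastid-encoded RNAs the genotypes differed in their medians without a call. The median was -0.19 in wild-type mock and -1.28 in gcn2 mock, where 57 of 69 were lower in SP, against 13.7% of all probe sets. By gradient it was -0.14, -0.06 and -0.44 in wild type and -2.04, -1.54 and -0.28 in gcn2, so replicate 3 of the mutant overlapped with wild type. For the single genes the difference between genotypes had a median of -1.07. By limma 43 of 69 had an unadjusted p under 0.05, against 1121 of all 22746 probe sets, but 0 passed after adjustment. psbD changed sign, with 1.56, 2.25 and 1.74 in wild type and -1.75, -0.53 and 0.85 in gcn2, a difference of -2.33 ± 0.63 that did not pass (adjusted p = 0.86). In gcn2 herbicide the list median was -1.71 with 67 of 69 lower, against 13.1% of all probe sets. In wild-type herbicide it was -0.40 with 14 lower, against 11.2% of all.

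Between treatments as labelled, 0 probe sets (0.0%) differed in SP minus NP in wild type by limma, while 644 reached 0.05 before adjustment. The 3 genes with the smallest p were AT5G04010 (-0.97 ± 0.22), AT2G35750 (-0.75 ± 0.19) and AT3G28750 (0.85 ± 0.21), each with an adjusted p of 0.9991. Without replicate 3 in both arms, 267 probe sets (1.17%) were lower after herbicide and 2 (0.00879%) higher. The lowest was AT3G58540 (-2.14 ± 0.41, adjusted p = 0.031, n = 2 gradients per arm), with SP minus NP of 1.46 and 1.80 after mock and -0.62 and -0.41 after herbicide. Replicate 3 gave -0.30 labelled mock and 1.77 labelled herbicide, the reverse order. AT1G65500 (-1.83 ± 0.24), AT5G50335 (-1.79 ± 0.38), AT2G47690 (-1.71 ± 0.23) and AT5G47600 (-1.70 ± 0.29) followed, and AT3G28750 was higher (1.17 ± 0.21).

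Ribosomal protein and histone genes had low medians in this comparison without replicate 3, at -0.49 for 40S proteins, -0.55 for 60S proteins and -0.57 for histones, against -0.03 for all probe sets. Of these lists 2 of 48, 6 of 84 and 1 of 17 members passed as lower and 0 as higher. Mitochondrion-encoded RNAs had a median of -0.21 and plastid-encoded RNAs of -0.42, with 0 members past the threshold.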

How the data were processed

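RNA of aerial seedling parts was hybridised to Affymetrix ATH1 arrays. The authors deposited log2 values for each probe set. Their processing notes name RMA, MAS5 and affy (versions not given in the sources used here). After 64 control probe sets were left out, 22746 were tested. Names came from the platform table and RefSeq assembly TAIR10.1: 13513 probe sets had 1 gene, 503 several, and 8730 were unnamed here.

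Each array was shifted to a common median. SP minus NP of 12 gradients was fitted with a mean for each of 4 groups (limma 3.58.1, R 4.3.3, lmFit and eBayes), and p-values were adjusted by Benjamini-Hochberg with a threshold of 0.05. The fit was tested on simulated data. Within wild-type mock, deviations of SP and NP from their group means correlated at 0.598, 0.335 and 0.512 for the same replicate number and at -0.47 to -0.039 for different numbers. Between the groups compared, same-numbered gradients correlated at 0.117, 0.054 and -0.041 (gcn2 mock and wild-type mock) and at -0.076, -0.052 and -0.247 (wild-type herbicide and mock), so they were not treated as pairs. Those of gcn2 mock and gcn2 herbicide, which were not compared, correlated at 0.165, 0.189 and 0.215. Replicates are not stated to be separate cultures, so p-values measure the spread between these samples.

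Named genes were the 14 largest differences per direction (1 gene, adjusted p under 0.05, the same sign in 3 gradients, not dim in the higher fraction), up to 2 per direction and list, and for differences between groups the 5 highest and lowest, or the 3 smallest p-values. AT2G41730, CML38 and UGT73C1, and the other genes named with a list, were chosen after their values were seen. The members and lists were chosen with earlier results of these data known. Lists were written by locus from general knowledge, except those of organelle RNAs, transcription factors and gene types, which follow the annotation and gene symbols. The lists of wall proteins and of small peptides were extended by gene names. Alternatives were the scaling, the pairing, the variance model, a filter on dim probe sets and leaving out gradients. Genomic span was used because protein lengths were not at hand.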

Additional observations from a re-analysis of the deposited data

Results flagged for a closer look

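AT4G03156 differed in SP minus NP between gcn2 mock and wild-type mock by -1.77 (tested), and its wild-type herbicide mean was -0.09, with every herbicide gradient below 0 and every mock gradient above 0 (not tested as a difference of direction; the contrast itself had an adjusted p of 0.9991 by limma). AT2G04770 differed between genotypes by 1.6 (tested). AT5G04010 had a wild-type herbicide mean of -0.38, with 3 gradients below 0, while the 3 mock gradients lay above 0. The opposite direction was not tested, and the contrast did not pass. In wild-type mock the NP mean of AT5G04010 (3.455) and both means of AT4G03156 (2.27 and 2.53) were dim, so these differences are uncertain in size. The wild-type gradients of replicate 3, whose treatment labels the marker genes contradict, enter the herbicide values.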

How the results depend on the processing

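Of the 6631 calls, 3441 were made without the replicate block, that is without pairing SP and NP by gradient, and all 3441 were among the 6631. A difference of at least 1 log2 left 1043. Leaving out a replicate of wild-type mock gave 4189 to 5391 calls, and leaving out replicate 3 in both arms, chosen after seeing the data, gave 5531. The other alternatives gave 6064 to 6938. With the replicate number as a block across groups there were 6697. For gcn2 against wild type, the 2 calls became 0 without the replicate block, 1 with the gradient as a random effect and 1 with the replicate block across groups, and 1 to 2 when a gradient was left out. For herbicide against mock, the count of 0 became 269 without replicate 3 of wild type in both arms. Of 84 values of named genes, 63 kept their call under all alternatives run, 0 reversed, and IAA18, ILR3, atpB and AT2G04770 lost it most often. Some alternatives had fewer arrays or a stricter criterion, and the cause of these changes was not tested.

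Dim probe sets made up 5855 of those tested and 234 of those called, and their differences are uncertain in size. Only relative levels within a fraction were measured. The wild-type treatment labels of replicate 3 limit every comparison between treatments.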
